A study of Caenorhabditis elegans with 2 samples.

Results

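The genes described here encode ubiquitin, ubiquitin-like proteins and proteins that attach, remove or read them in the nematode Caenorhabditis elegans. The question was which of their promoters carried ATTF-3, whose name refers to the AT-hook, a short peptide that binds the minor groove of DNA rich in A and T. They were chosen by gene symbol: of 19973 nuclear protein-coding genes, 77 had a symbol of the ubc, uba, ubq, ubl, usp, ufd, ubxn, cul, skr, rbx or cdc-48 families. The data were peak lists from chromatin immunoprecipitation with sequencing (ChIP-seq), in which DNA fragments crosslinked to a protein are recovered with an antibody and their pile-ups are listed as peaks. All samples belonged to 1 group of 2 biological replicates: whole young adults of strain RW12296, aged 63 hours and synchronised as starved L1 larvae, with TY1, EGFP and 3xFLAG inserted at attf-3 on its own chromosome by CRISPR, and an antibody against GFP. No untagged or mock-precipitated worms form a group here, both replicates carry the tag, and a whole-worm preparation mixes germline and somatic nuclei, so no peak can be assigned to a tissue. The lists hold no read counts, and depth per replicate is unknown.

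Ubiquitin is a small protein that cells join to other proteins as a mark, often for destruction by the proteasome. An activating enzyme (E1) loads ubiquitin, a conjugating enzyme (E2) carries it, and a ligase (E3) places it on the substrate. Cullins are the scaffolds of a large class of ligases: a RING subunit (RBX) recruits the E2, and at the other end an adaptor such as a Skp1-related protein (SKR) holds a substrate receptor. Deubiquitinases such as the USP family remove the mark, and the ATPase CDC-48, with cofactors of the UFD and UBXN families, pulls marked proteins out of complexes and membranes.

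A gene was counted as bound when a peak summit of the list supported by both replicates, the joint list of 1737 peaks, was no more than 500 bp from the 5' end of the gene. Of the 77 genes, 11 were bound (14.3%, 95% Wilson interval 8.17 to 23.8%), where 6.07% of all protein-coding genes were. Each replicate's own list held 10 of the 77 (13.0% in each), against backgrounds of 4.03% in replicate 1 and 4.4% in replicate 2, and 9 were in both lists (background 3.33%). The count was 8 with a window of 250 bp (background 3.9%), 14 with 1000 bp (background 7.73%), 9 with each summit given to its nearest gene only (background 4.67%), 12 with the 5' end of any transcript (background 6.34%) and 10 with the peaks at or above the median signal (background 3.93%). By step of the pathway, none of the 3 E1 genes (0 to 56.1%), 2 of 21 E2 genes (9.52%, 2.65 to 28.9%), 1 of 9 USP deubiquitinase genes (11.1%, 1.99 to 43.5%) and 2 of 28 cullin ligase genes (7.14%, 1.98 to 22.6%) were bound. CDC-48 and its cofactors had 4 of 12 bound (33.3%, 13.8 to 60.9%), and ubiquitin and ubiquitin-like genes 2 of 4 (50%, 15.0 to 85.0%). The intervals of all of these classes overlapped one another, and no difference between classes was tested.

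**Figure D1:**
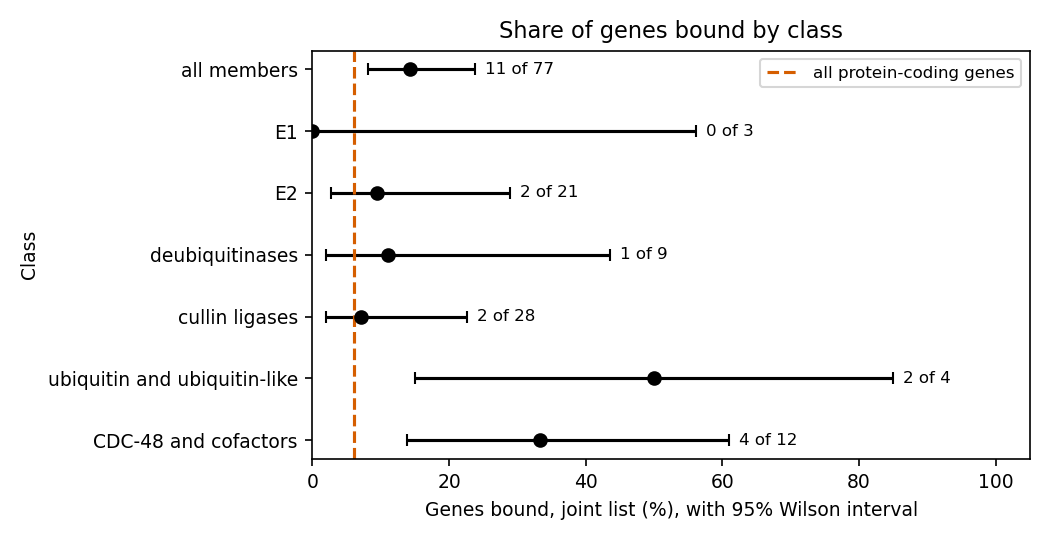
Share of genes bound in the joint list (%, x axis) for all 77 genes and for each class (y axis). Points are shares, bars are 95% Wilson intervals over genes, labels give the counts, and the dashed line is the 6.07% of all protein-coding genes. CDC-48 with its cofactors and the ubiquitin-like genes lie farthest to the right, with intervals that overlap those of the other classes.

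The DNA under the summits is shown for the bound genes so that the base composition described later can be read directly. Each line is the joint summit with 50 bp on either side, 5' to 3' on the strand of the gene, from the RefSeq copy of assembly WBcel235, the same assembly as the ce11 of the peak lists. Capitals mark CGCGC on either strand (CGCGC or GCGCG), which may overlap, a string chosen after these windows had been seen. The windows were chrIII:188629-188729 (plus strand) for ubc-20, chrII:10563523-10563623 (minus) for cdc-48.1, chrII:9940579-9940679 (plus) for ufd-3, chrIII:3068051-3068151 (plus) for ubl-1, chrII:7478886-7478986 (plus) for ubc-6, chrII:7301797-7301897 (plus) for cul-4, chrII:8062398-8062498 (plus) for ufd-2 and chrIV:2725944-2726044 (minus) for ubxn-2.
ubc-20: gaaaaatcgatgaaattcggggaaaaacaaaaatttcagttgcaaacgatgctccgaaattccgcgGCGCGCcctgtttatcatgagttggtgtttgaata
cdc-48.1: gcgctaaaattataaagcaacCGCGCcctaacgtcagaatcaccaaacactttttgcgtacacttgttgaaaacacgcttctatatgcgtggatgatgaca
ufd-3: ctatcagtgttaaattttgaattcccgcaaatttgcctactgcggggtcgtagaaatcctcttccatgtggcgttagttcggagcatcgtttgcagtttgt
ubl-1: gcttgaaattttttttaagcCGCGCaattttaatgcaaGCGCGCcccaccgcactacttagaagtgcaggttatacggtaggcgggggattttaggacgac
ubc-6: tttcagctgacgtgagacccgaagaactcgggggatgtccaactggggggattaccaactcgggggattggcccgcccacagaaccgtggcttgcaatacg
cul-4: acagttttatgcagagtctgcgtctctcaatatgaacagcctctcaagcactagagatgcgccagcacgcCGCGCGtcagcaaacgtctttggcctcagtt
ufd-2: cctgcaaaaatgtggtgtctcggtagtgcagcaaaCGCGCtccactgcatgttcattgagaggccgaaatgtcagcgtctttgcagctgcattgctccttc
ubxn-2: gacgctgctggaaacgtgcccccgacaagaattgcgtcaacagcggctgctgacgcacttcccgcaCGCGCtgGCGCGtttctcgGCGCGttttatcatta
Of these 8 windows, 6 carry the capitals and those of ufd-3 and ubc-6 do not.

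Among the conjugating enzymes, ubc-20 (WBGene00006715, chromosome III, 188838 to 190883, plus strand), whose mammalian relative is the E2 UBE2K, had the highest signal of any of the 77 genes. Signal is the value the authors' peak caller gave each peak, on a scale that is not stated. Its peak from 188457 to 188852 had a signal of 964.05 in the joint list, rank 91 of 1737, with 484.11 in replicate 1 and 468.23 in replicate 2 (476 ± 11.2, SD, n = 2). The other bound E2 gene was ubc-6 (WBGene00006703, chromosome II), a relative of the membrane-anchored Ubc6 that acts in degradation from the endoplasmic reticulum of yeast. Its joint signal was 320.3, rank 292, with 165.89 in replicate 1 and 143.28 in replicate 2. The joint value is on the scale of the combined replicates and is higher than either replicate's own value at each bound gene.

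The remaining 19 E2 genes were not bound in the joint list. These include ubc-9, the SUMO conjugating enzyme, whose closest joint summit was 5067 bp away, ubc-12, the NEDD8 conjugating enzyme, at 18824 bp, and ubc-13, which makes lysine-63 chains in other animals, at 2940 bp. The gene let-70, an E2 gene of the UBE2D type that the symbol rule leaves out and that was added by name, had its closest joint summit at 56060 bp. All 3 E1 genes that the symbol rule takes in were outside the window as well. The rule leaves out rfl-1, a gene for a subunit of the NEDD8 E1, which was bound and is described with the other lists below. The closest summit to uba-1, the ubiquitin E1, was 62712 bp away, and that to uba-2, a subunit of the SUMO E1, was 86823 bp away. At uba-5, the E1 of the ubiquitin-like protein UFM1, a summit lay 520 bp downstream of the 5' end in an intron of the gene, just past the limit, with a joint signal of 99.3 and a peak in neither replicate's own list.

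Of the genes of ubiquitin itself, neither was bound. The polyubiquitin gene ubq-1 and the ubiquitin fusion gene ubq-2 had their closest joint summits at 2369 and 37633 bp. The gene ubl-1 (WBGene00006725, chromosome III, 3068310 to 3069210), which encodes a ubiquitin-like domain fused to a ribosomal protein of the small subunit, was bound, with a joint signal of 359.58 at rank 265, and with 156.15 and 204.66 in replicates 1 and 2. The gene ubl-5 (WBGene00006726, chromosome I, 5607826 to 5608841), whose product acts in the mitochondrial unfolded protein response, had a weaker peak of 136.03 at rank 752. Its signals in the ranked lists were close, 69.07 in replicate 1 and 64.81 in replicate 2. Only the latter was kept in its replicate's thresholded list, with a −log10 global irreproducible discovery rate (IDR, low where 2 ranked sets of peaks place a peak alike) of 2.67 against 0.0645 in replicate 1, where the lists end at 2.

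CDC-48 and its cofactors had 4 bound genes. In cdc-48.1 (WBGene00007352, chromosome II, 10560036 to 10563407, minus strand), a worm gene for the ATPase known as p97 in mammals, the joint signal was 904.19 at rank 99, with 436.95 in replicate 1 and 466.69 in replicate 2 (452 ± 21.03, SD, n = 2). Its partner copy cdc-48.2 had its closest joint summit at 6970 bp, and its strongest ranked-list peaks within 500 bp were 23.2 in replicate 1 and 29.9 in replicate 2. The value of cdc-48.2 was below that of cdc-48.1 in each replicate. The gene ufd-3 (WBGene00007333), whose relatives bind Cdc48 and ubiquitin, followed with 767.39 in the joint list, 344.66 in replicate 1 and 422.25 in replicate 2.

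Lower signals were found at ufd-2 (WBGene00006734), which encodes an E4 enzyme that lengthens ubiquitin chains, and at ubxn-2 (WBGene00022381), a p47-type cofactor. The joint signal of ufd-2 was 140.38 at rank 717, with 79.28 in replicate 1 and 61.97 in replicate 2, and replicate 2's own list did not keep it. At ubxn-2 the joint signal was 105.21 at rank 1108, the lowest of the 11 bound genes, with 73.62 in replicate 1 and 47.23 in replicate 2, both kept. The other 8 genes of the class, cdc-48.2, cdc-48.3, ufd-1, ubxn-1, ubxn-3, ubxn-4, ubxn-5 and ubxn-6, had no joint summit in the window. All 12 genes of the class nevertheless had a peak of some strength within 500 bp in the ranked list of replicate 2, and 8 of the 12 in that of replicate 1, where 40.7% and 42.3% of all protein-coding genes did.

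Of the cullin ligase genes, a scaffold and a RING subunit were bound and no Skp1-related adaptor was. The RING subunit gene rbx-2 (WBGene00019993, chromosome I, 6420660 to 6421889, minus strand) had a joint signal of 779.1 at rank 130, with 379.17 in replicate 1 and 390.68 in replicate 2 (385 ± 8.14, SD, n = 2). Its paralog rbx-1 had its closest joint summit at 40683 bp and ranked-list peaks of 40.6 and 19.6. The cullin gene cul-4 (WBGene00000839, chromosome II, 7302101 to 7305758), whose ligase acts in DNA replication licensing, had a joint signal of 187.07 at rank 500, with 97.91 and 90.91 in replicates 1 and 2. A further, much weaker summit of the joint list lay 55 bp upstream of the same 5' end, with a signal of 8.49 at rank 1689. The stronger summit lay 254 bp upstream, so with a window of 250 bp cul-4 counted as bound through the weaker one alone.

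The other 5 cullin genes were not bound. The closest joint summits were 1138 bp away for cul-5, 4264 bp for cul-6, 8512 bp for cul-3, 9885 bp for cul-1 and 43532 bp for cul-2. Of these, cul-1 and cul-3 had peaks in the ranked lists of both replicates, at 16.6 and 22.4 for cul-1 and at 24.9 and 39.04 for cul-3, and cul-2, cul-5 and cul-6 had none in either. Of the 20 skr genes, 0 were bound, with a Wilson interval of 0 to 16.11%, so that a share below the 6.07% background was not detectable with a family of this size. Ranked-list peaks of any strength lay at 10 of the 20 in each replicate and at 6 (30%) in both, where 25.9% of all protein-coding genes had one in both.

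Among the deubiquitinase genes, usp-48 (WBGene00009267, chromosome I, 9506547 to 9511184) was bound, with a joint signal of 219.66 at rank 412, and with 83.99 in replicate 1 and 123.48 in replicate 2. Its summit, 404 bp upstream, was the farthest of all the bound genes, and the 5' end of F30A10.9 on the other strand was nearer, at -375 bp. Beyond the window, usp-33 and usp-4 had summits 643 and 661 bp upstream, with joint signals of 515.35 and 211.45, both in both replicates' own lists. The usp-33 summit lay nearer to the 5' end of gas-1, a subunit gene of respiratory complex I, at -328 bp, while usp-4 was itself the nearest gene to its summit. With a window of 1000 bp, 3 of the 9 USP genes counted as bound. With 250 bp, or with each summit given to its nearest gene only, none did.

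**Figure D2:**
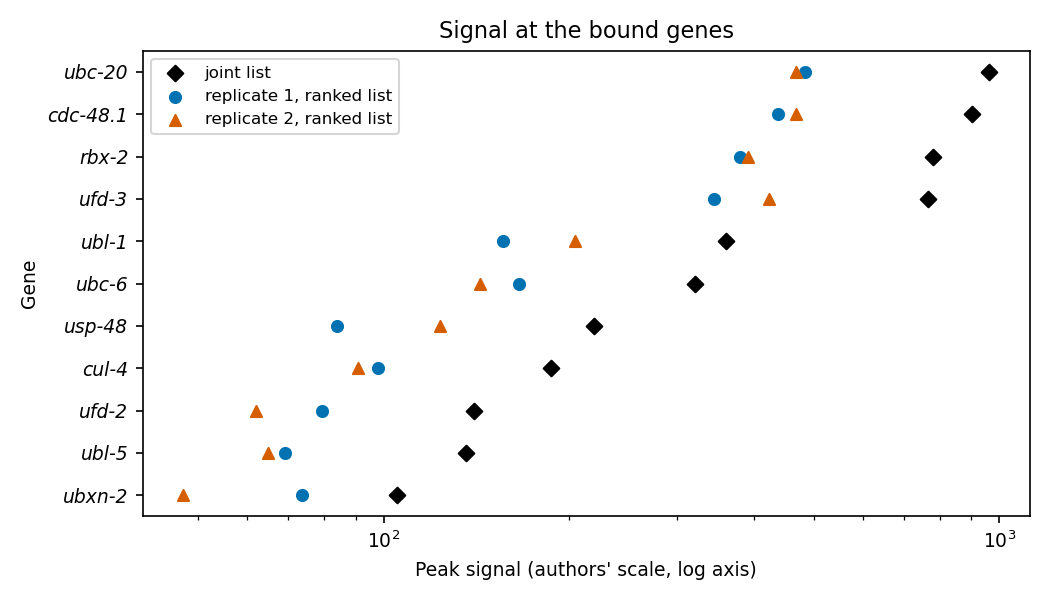
Peak signal (authors' scale, log x axis) at each of the 11 bound genes (y axis), in order of the joint value. Diamonds are the joint list, circles replicate 1 and triangles replicate 2, the last 2 from the replicates' ranked lists. The genes from ubc-20 to ufd-3 stand at 344.66 or above in both replicates, and ubl-1 comes next at 156.15 and 204.66.

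A gap in signal separated 4 genes from the rest. With ubc-20, cdc-48.1, rbx-2 and ufd-3 between 767.39 and 964.05 in the joint list, the next gene, ubl-1, was at 359.58. The median over the 11 bound genes was 320.3, beside 155.23 over all 1212 bound protein-coding genes, and 8 of the 11 lay above that value. In both replicates' own lists 9 of the 11 were kept, beside 664 of all 1212 bound protein-coding genes. Signals were higher in replicate 1 at 6 genes and in replicate 2 at 5. The higher value exceeded the lower by a median of 1.16-fold, from 1.03-fold at rbx-2 to 1.56-fold at ubxn-2, beside a median of 1.17-fold over 972 promoter peaks matched in both ranked lists. The replicates' summits lay a median of 13 bp apart, from 2 bp at ufd-3 to 62 bp at ubxn-2, beside 16 bp over those promoter peaks.

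Peaks below the threshold were read from the ranked lists, which keep peaks at any IDR. A peak within 500 bp was present at 46 of the 77 genes in replicate 1 (59.7%, background 42.3%), at 47 in replicate 2 (61.04%, background 40.7%) and at 37 in both (48.05%, background 25.9%). The unbound genes with the best ranks in both replicates were ubc-3, ubc-8, usp-3, uba-1 and ubc-9. Their signals were 36.8 and 38.9 for ubc-3, 38.01 and 38.2 for ubc-8, 36.9 and 37.7 for usp-3, 37.9 and 37.4 for uba-1, and 34.2 and 37.5 for ubc-9. In the ranked list of the combined replicates, ubc-3 reached a −log10 IDR of 0.394, ubc-9 1.47, usp-3 1.66, uba-1 1.69 and ubc-8 1.75, all short of the limit of 2, which the weakest bound gene, ubxn-2, passed with 2.85. The list from pooled reads, which the authors also deposited, kept ubc-7 and ubc-8 and dropped ubl-5, for 12 of 77 genes (background 6.01%).

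**Figure D3:**
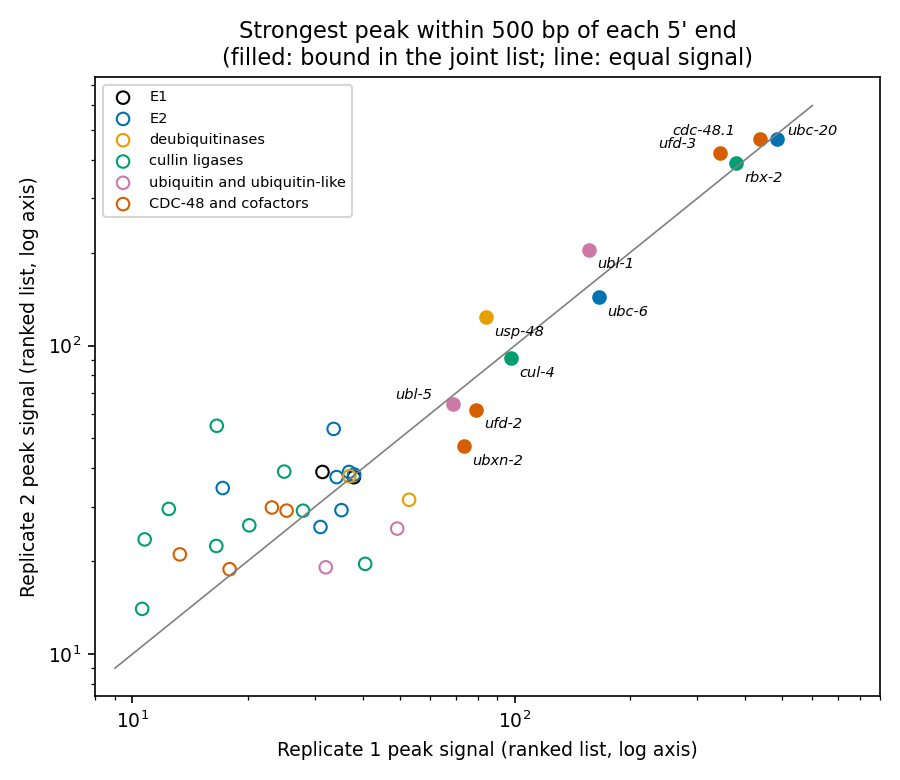
Signal of the strongest ranked-list peak within 500 bp of the 5' end in replicate 1 (x axis) and replicate 2 (y axis), both on log axes and on the authors' scale, for the 37 genes with a peak in both. Colours are classes, filled points are bound in the joint list, and the grey line is equal signal. The bound genes run up the line from 69.07 in replicate 1 upwards, while all unbound genes lie at or below 52.9 in replicate 1 and 54.96 in replicate 2.

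Among peaks within 500 bp of the 5' end, every bound gene had a higher replicate 1 signal than any unbound one. The lowest bound value, 69.07 at ubl-5, was above 52.9 at usp-14, the gene of a proteasome-bound deubiquitinase. In replicate 2 the ranges met: ubxn-2, at 47.23, was below skr-18, at 54.96, and ubc-7, at 53.7. In replicate 1 these had 16.6 and 33.6. Since the joint list was made from both replicates, this order is a description and not a test.

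All 11 summits lay upstream of the annotated 5' end, at distances from -404 bp at usp-48 to -101 bp at rbx-2, with a median of -204 bp and quartiles of -252.5 and -162.5 bp. Over all 979 joint summits near a protein-coding 5' end, 84.6% lay upstream of the nearest one, with a median of -149 bp. The distances of the 11 are from the gene's own 5' end, and at rbx-2 and usp-48 that of another gene was nearer. Between 100 and 300 bp upstream lay 10 of the 11, and the quartiles over all 979 summits were -254 and -50 bp. All 11 summits were outside protein-coding genes, and no annotated non-coding gene lay within 200 bp of any of them. Many worm transcripts receive a spliced leader in place of their own first bases, so that the annotated 5' end of such a gene can lie downstream of the start of transcription.

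**Figure D4:**
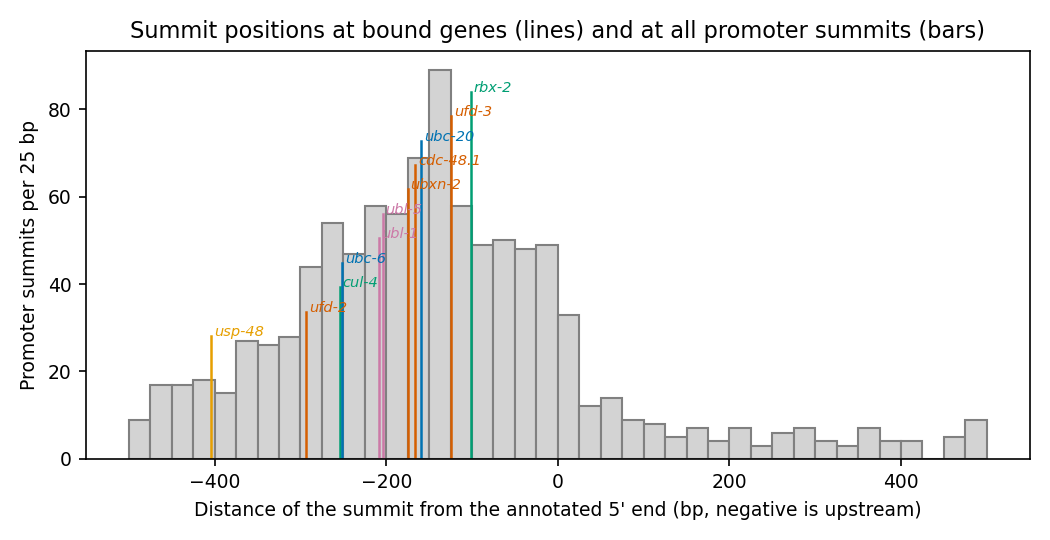
Distance of joint summits from the annotated 5' end (bp, x axis, negative is upstream). Grey bars count all 979 promoter summits per 25 bp (y axis), each from its nearest 5' end. Coloured lines, whose height only separates the labels, mark the 11 bound genes in the class colours of the plot of replicate signals. Each line is placed from the gene's own 5' end. All 11 lines stand upstream, between -404 and -101 bp.

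At 3 of the 11 genes the summit was also within 500 bp of another protein-coding 5' end, as were 29.8% of all promoter summits. The summit at rbx-2 lay at -71 bp from the 5' end of ncbp-1, which encodes a subunit of the nuclear cap-binding complex, and so nearer to that gene than to rbx-2. That at ubc-6 lay at -399 bp from that of aka-1, and that at usp-48 near F30A10.9 as given above. Which gene of such a pair is acted on cannot be told apart from peak positions. The other 8, among them ubc-20, cdc-48.1, ufd-3 and cul-4, had the summit to themselves within this window.

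Worm genes often lie head to tail on a strand, some of them in operons read from the promoter of the leading gene. Of the 77 genes, 14 had the end of another protein-coding gene on the same strand within 500 bp before their 5' end, and 3 of these 14 were bound at their own 5' end, namely ufd-3, cul-4 and ubl-5. Of the 63 others, 8 were bound. In the whole annotation the shares were 4.94% with such a neighbour and 6.33% without. Of the 11 unbound genes in such a row, 2 had a bound gene at the head of it, ubc-14 behind nyn-2 and skr-18 behind F56B3.11, beside 13.0% over all unbound genes in such rows. The list of operons was not used here.

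By chromosome, 5 of 15 members on II, 3 of 16 on I, 2 of 10 on III, 1 of 17 on IV, 0 of 11 on V and 0 of 8 on X were bound. The shares of all protein-coding genes bound were 6.67% on II, 8.93% on I, 8.67% on III, 6.98% on IV, 4.27% on V and 1.98% on X.

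The DNA at the summits was poorer in A and T than that further out. The median A and T content within 50 bp of the 11 summits was 51.5%, from 39.6% at ubxn-2 to 58.4% at ubc-20, and over all 979 promoter summits it was 53.5%. At 149 bp upstream, the median summit distance, the 66 unbound members had a median of 68.3% and 18760 unbound protein-coding genes 66.3%. The windows at summits are placed by the signal and the others by a fixed distance, and at that fixed distance the 11 bound members had 62.4% and all 1212 bound genes 65.3%. In steps of 50 bp, mean A and T content at the bound members was 51.6% ± 9.91 (SD over 11 genes) just upstream of the summit and 50% ± 8.39 just downstream, against 68.5% ± 11.1 and 66.9% ± 8.96 in the next steps outward. The longest uninterrupted run of A and T had a median of 8 bp within 50 bp of the bound members' summits and 7 bp at all 979 promoter summits. At the fixed distance it was 9 bp at bound members, 10 bp at unbound members, 10 bp at all bound genes and 9 bp at all unbound genes. Sequencing coverage can itself vary with base composition, and the part of this in the signal was not tested.

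**Figure D5:**
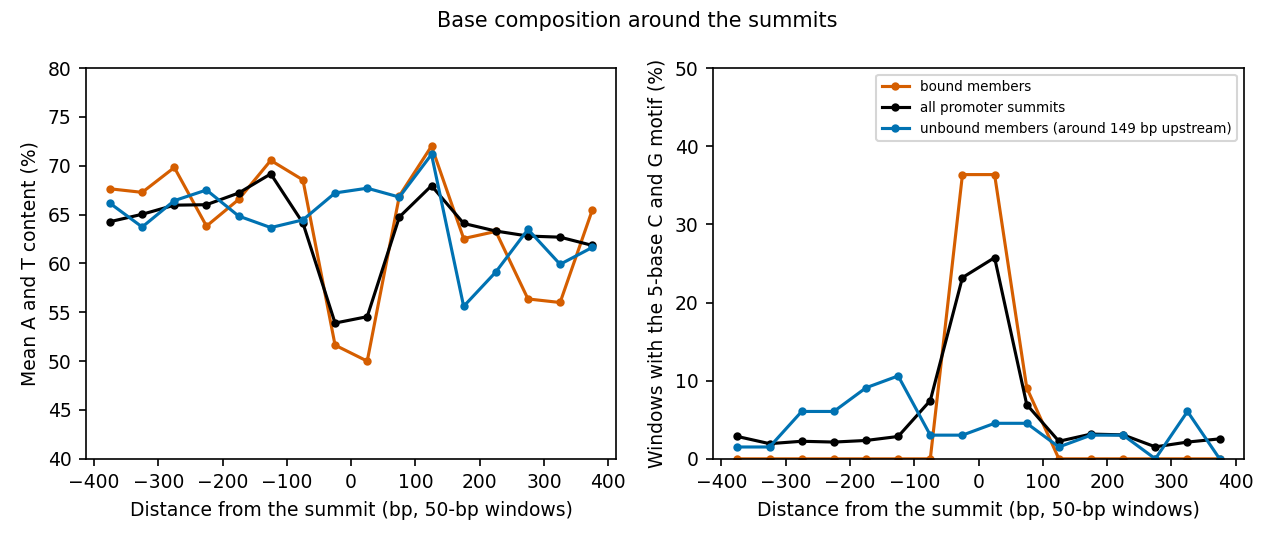
Mean A and T content (left, %) and share of windows with CGCGC on either strand (right, %) in 50-bp steps from the summit (x axis, bp) at the 11 bound members and at all 979 promoter summits, and from the position 149 bp upstream of the 5' end at the 66 unbound members. At the bound members A and T content drops to 51.6% and 50% in the 2 steps beside the summit, and the motif is found in 36.4% of windows in each of these steps.

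The string CGCGC, on either strand, was in 8 of the 11 summit windows (72.7%), in 42.1% of the 979 windows at all promoter summits and, at the fixed distance, in 7.58% of unbound members and 5.21% of unbound protein-coding genes. At the fixed distance it was in 5 of the 11 bound members and in 20.5% of all 1212 bound genes. It was picked because it recurred in the printed windows, so these shares describe those windows and are no test. Those without it were ufd-3, ubc-6 and usp-48. Of the motifs listed for the search, again on both strands, CGACACT was in the window of rbx-2 alone, beside 12.4% of all promoter summits, and CTGCGTCT in that of cul-4 alone, beside 5.62%. The string AAATTT was in 4 of the 11 windows, beside 16.9%, and the GATA-type TGATAA in 2, beside 3.06%. The E2F-type GGCGGGAA was in none, beside 1.12%. At the fixed distance AAATTT was in 5 of the 11 bound members, 25.8% of unbound members and 24.3% of unbound protein-coding genes. There TGATAA was in 2 of the 11 bound members, 7.58% of unbound members and 12.01% of unbound protein-coding genes. Both strings were thus less common at promoter summits than at the fixed distance in unbound genes.

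The rest of the pathway was read from lists of gene symbols. Of 37 genes of the SUMO, NEDD8, UFM1 and autophagy conjugation systems, 5 were bound (13.5%, 5.91 to 28.0%, background 6.07%). The 3 with the highest signals were rfl-1, dcn-1 and csn-5, of which csn-5 alone was bound with a window of 250 bp. At rfl-1, a subunit of the NEDD8 E1, the joint signal was 1236.92 with its summit 264 bp downstream of the 5' end, and replicates 1 and 2 had 556.4 and 677.75. At dcn-1, which promotes the joining of NEDD8 to cullins, it was 1030.39, with 482.68 and 550.13. At csn-5, the catalytic subunit of the signalosome that removes NEDD8, it was 599.04, with 280.68 and 309.49. Weaker peaks were found at smo-1, the SUMO gene, with 108.46, and at the autophagy gene lgg-2, with 100.06, each kept in the list of 1 replicate.

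Of 56 ligase genes and receptors, 8 were bound (14.3%, 7.42 to 25.7%, background 6.07%). The strongest were sel-1, a subunit of the ligase complex of the endoplasmic reticulum, with a joint signal of 1032.24, cdt-2, a substrate receptor of CUL-4 ligases, with 680.68, and the HECT ligase gene eel-1, with 487.99. All 3 were in both replicates' lists, with 460.73 and 574.03 at sel-1, 322.57 and 360.73 at cdt-2, and 253.95 and 255.14 at eel-1. The others were rfp-1 (173.7), wwp-1 (131.34), ari-1.1 (122.32), the F-box gene sel-10 (91.0) and mib-1 (50.9). Of these, rfp-1 was in both replicates' own lists, wwp-1 and ari-1.1 in that of replicate 2 only, and sel-10 and mib-1 in neither. The wwp-1 signals were 42.8 in replicate 1 and 90.8 in replicate 2. The rfp-1 summit lay nearer to the 5' end of R05D3.8, at -38 bp. The cdt-2 summit was also within 500 bp of the 5' end of T01C3.2, and that of mib-1 of those of smc-3 and gly-9. Of 14 genes of the anaphase-promoting complex, 2 were bound (14.3%, 4.01 to 39.9%, background 6.07%), emb-27 (498.2) and mat-1 (79.46), each at a summit nearer to another gene, rrf-3 and prp-31. Both replicates' own lists held the emb-27 peak and neither held that of mat-1. Of 17 further deubiquitinase genes, 2 were bound (11.8%, 3.29 to 34.3%, background 6.07%). They were ubh-4 (248.89), of the UCH family, in both replicates' lists, and rpn-11 (144.11), the deubiquitinase of the proteasome lid, in that of replicate 1. The ubh-4 summit was also within 500 bp of the 5' end of algn-6.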

How the data were processed

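The authors deposited ChIP-seq peak lists on assembly ce11, per the labels, made from alignments of each replicate and of a control, per the deposited file descriptions. Which aligner and peak caller were used is not given in the sources used. The authors' files give per peak a signal value of unstated scale, a scaled IDR score capped at 1000 and a summit offset; ranked lists also give the −log10 global IDR. Thresholded lists end at an IDR of 0.01. In the joint list they leave out 82 ranked peaks that pass it, none of them near a member.

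Genes came from Ensembl release 115 and sequences from RefSeq, both on WBcel235. Replicate values are those of the ranked-list peak that overlaps the joint peak by at least 1 bp and has the highest signal. Shares carry 95% Wilson intervals, which cover counting error over genes only. With 1 group of 2 replicates no test between conditions was possible, and class shares were not tested. The members, the other gene lists and the motifs were chosen with earlier results of these data known. Named were all bound genes, all E1 and cullin genes, unbound members with a summit within 1000 bp and the 5 best-ranked unbound members; other unbound members were named as relatives of these or for their role. CGCGC, the profile around summits and let-70 were chosen after the data were seen. Alternatives were the list from pooled reads, peaks at or above the median signal, each replicate alone, windows of 250 and 1000 bp, the nearest gene only, any transcript's 5' end and sequence windows of 100 bp on either side of the summit. Symbols rad-18, tofu-3 and duo-2 were not matched. Assignment of summits was tested on simulated data. Python 3.11.15, pandas 2.3.3, numpy 2.4.6 and scipy 1.17.1 were used.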

Additional observations from a re-analysis of the deposited data

How the results depend on the processing

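The count of 11 bound members stayed between 8, with a window of 250 bp, and 14, with 1000 bp, over the alternatives tried. It was 10 without either replicate, 10 with peaks at or above the median signal, 9 with the nearest gene only and 12 with any transcript's 5' end. Classes are small, and 1 or 2 genes moved them. E1 genes had 1 bound, uba-5, with 1000 bp and with any transcript's 5' end. E2 genes had 4 in the list from pooled reads and 1 with 250 bp. USP genes had 3 with 1000 bp, and 0 with 250 bp or the nearest gene only. Cullin ligases had 1 with the nearest gene only. Ubiquitin and ubiquitin-like genes had 1 in the list from pooled reads, and 1 to 2 without a replicate, since ubl-5 was lost without replicate 2; CDC-48 and its cofactors had 3 to 4. The ligase list had 5 in the stronger peaks, 13 with 1000 bp and 4 to 6 without a replicate. The conjugation list had 3 in the stronger peaks and 1 with 250 bp. The anaphase-promoting complex had 1 in the stronger peaks, 0 with 250 bp or the nearest gene only and 1 to 2 without a replicate, and the further deubiquitinases 1 to 2 without a replicate and 3 with any transcript's 5' end. All protein-coding genes had 785 in the stronger peaks (3.93%), 779 with 250 bp (3.9%) and 805 to 879 without a replicate (4.03 to 4.4%). Their shares were 7.73% with 1000 bp, 4.67% with the nearest gene only, 6.34% with any transcript's 5' end and 6.01% from pooled reads. These shares are the background of the class counts above at each setting. The A and T content of bound members was 60.2% with 100 bp on either side of the summit, a window that takes in the flanks. The median signal of bound members in replicate 2 was 173.97 over genes in its own list and 143.28 over all 11 in its ranked list, which adds ufd-2. No paired analysis was possible because the samples form 1 group. Without read counts, what depth limits could not be measured.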
